A study of Mus musculus with 21 samples.

Results

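Caveolae are small pits of the plasma membrane that are built from caveolin and cavin proteins, and notochord vacuoles are large fluid-filled organelles that are related to lysosomes. A set of 9 genes for these structures was examined among the 23983 genes of the expression table. It was chosen by gene symbol from known function and holds the caveolins Cav1 and Cav2, the cavins Ptrf (current symbol Cavin1), Sdpr (Cavin2) and Prkcdbp (Cavin3), the small GTPases Rab32 and Rab38, and the lysosomal membrane proteins Lamp1 and Lamp2. The question was how these genes differ between notochord progenitors, trunk notochord and cultured cells.

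In the zebrafish notochord, caveolae protect the vacuolated cells from mechanical load, and the vacuole forms by trafficking routes that also serve lysosomes and melanosomes. Caveolin-1 forms the caveolar scaffold and caveolin-2 joins it, cavin-1 assembles the coat, and cavin-2 and cavin-3 associate with that coat. Rab32 and Rab38 direct cargo to lysosome-related organelles, and Lamp1 and Lamp2 are the abundant glycoproteins of the lysosomal membrane.

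Each of 9 RNA-seq libraries was the single library of its group, so differences between libraries have no replicate check and no test was made. In 6 libraries the cells came from embryos made from F1G4 mouse embryonic stem cells (C57BL/6N x SV129) that carry BAC reporters T::H2B-Venus, Noto::H2B-mCherry and Foxa2::H2B-mTurquoise, at E8.5 (Theiler stage 12) and E9.5 (Theiler stage 16). NotoP cells, the putative notochord progenitors, were sorted as positive for all 3 reporters from the caudal end, trunk notochord cells by the same reporters from the trunk, and MP cells, the mesoderm progenitors, as T-positive, Noto-negative and Foxa2-negative cells of the caudal end. The 3 cultured libraries came from another line derived from the same F1G4 stem cells. It carries TRE::Foxa2-IRES-EGFP at Rosa26, T::H2B-mCherry-T2A-irTA and Noto::H2B-mTurquoise. NMPdiff cells were taken at day 3. MPdiff cells had a further day of CHIR99021, a Wnt pathway activator, to day 4. Both were sorted as T-positive and Noto-negative. NotoPdiff cells, T-positive and Noto-positive, had CHIR99021 with doxycycline at 1 ng/ml from day 2 to day 4. The doxycycline-induced Foxa2 transgene therefore depends on T activity and is specific to this culture model. ChIP-seq for T and for Foxa2 used bulk cultures enriched for NotoPdiff cells, with 1 library each. The cultured and embryonic RNA libraries were read on different sequencers, so their levels are set side by side and no ratio between them is given.

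The labelled identities were set beside 8 notochord markers (T, Noto, Foxa2, Shh, Nog, Chrd, Foxa1 and Sox9). Their summed level was 1168 to 1484 FPKM (the fragments of a gene scaled by its length and by the size of the library) in the 4 NotoP and trunk notochord libraries, 79.3 and 164 FPKM in the MP libraries, and 658, 30.7 and 424 FPKM in NotoPdiff, MPdiff and NMPdiff. T, Noto and Foxa2 were reporters of the sorts or, for Foxa2 in NotoPdiff, the induced transgene, so this sum is no independent check. T was its largest part in E8.5 NotoP (909 FPKM), E8.5 MP (74.8 FPKM) and NMPdiff. Chrd was listed at 0 in trunk notochord at E9.5. T, the sorting marker of MPdiff, stood at 25.8 FPKM there against 406 FPKM in NMPdiff. Between 7573 and 13945 genes were listed at 0 in a library, most of them in E8.5 MP. The study records that library as made from the fewest cells, and each embryonic library as a pool of cells from several embryos. Both trunk notochord libraries came from fewer cells and fewer reads than the NotoP libraries, and their pools span a wider range of somite stages. At E8.5 the study records a Foxa2-high gate for trunk notochord and a Foxa2-positive gate for NotoP. The part of these differences in the comparisons of trunk notochord with NotoP was not tested. Of the genes between 5 and 10 FPKM in E8.5 NotoP, 16.4% were listed at 0 in E8.5 MP, and of those between 1 and 5 FPKM, 42.4%. A value of 0 in this table is therefore given as listed at 0, and no fold is given against it. Such genes still enter the counts of genes past 3-fold, through the 1 FPKM added to each value.

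A difference of 3-fold was counted on log2 ratios of (FPKM + 1), where it is 1.58, and a gene was counted as tested in a comparison if it reached 1 FPKM in 1 of the 2 libraries. Lamp1 and Lamp2 were abundant in every library, and Rab38 in trunk notochord. All other values of the set were at 7.91 FPKM or less.

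**Figure D1:**
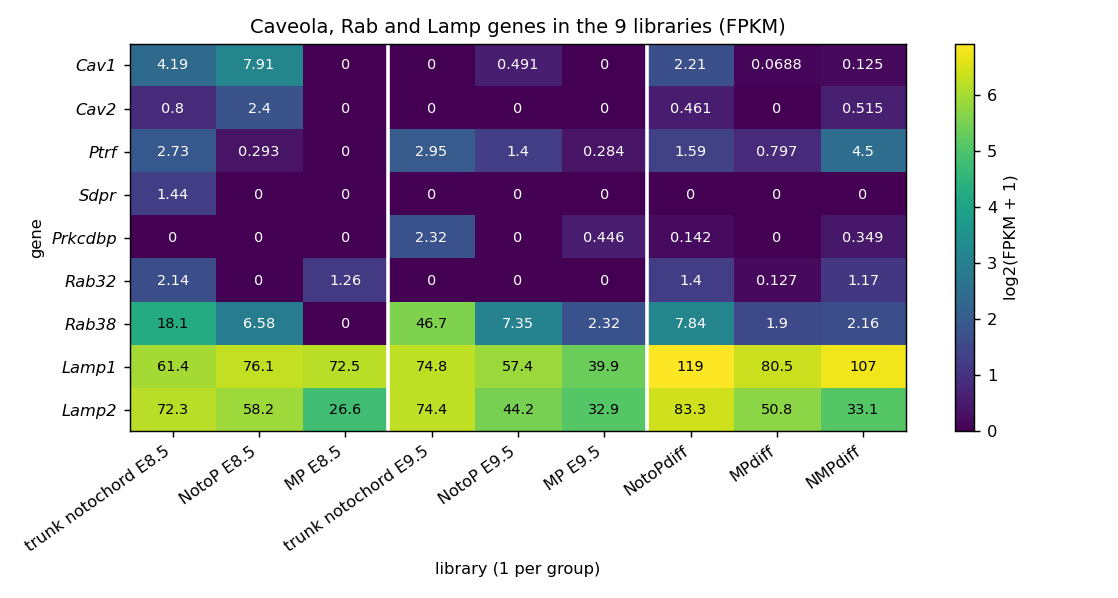
FPKM of the 9 genes (rows) in the 9 RNA-seq libraries (columns, 1 per group), with the colour on a log2(FPKM + 1) scale and the FPKM printed in each cell. Lamp1 and Lamp2 were at 26.6 FPKM or more in all 9 libraries, Rab38 peaked at 46.7 FPKM in E9.5 trunk notochord, and the caveola genes were mostly listed at or near 0.

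Rab38 (chr7:88430273-88491572, plus strand) held one of the strongest T peaks of the NotoPdiff cultures. The peak lay in an intron at chr7:88482584-88483164 in GRCm38, the mm10 build of the files, 52624 bp after the start site of the gene, with a fold enrichment of 24.8 at its summit and a −log10 q of 146. By fold enrichment it ranked 41 of 6875 T peaks, so 0.596% of the peaks were as strong, against a median peak of 7.45-fold and a 99th percentile of 23.5-fold. The strongest Foxa2 peak nearest to any of the genes was the one upstream of Lamp1, at 22.4-fold, 40th of 22684 peaks. It lay 27320 bp before the Lamp1 start site, in an intron of Cul4a, whose own start site was 26220 bp from it.

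The sequences under these summits are shown because the strongest T and Foxa2 signals near the set lie on them, together with the peaks nearest to Cav1 and Prkcdbp for comparison. Each is the 201 bp around a summit, read 5′ to 3′ on the plus strand of GRCm38. Capitals mark matches to the T sequences TCACACCT or TCACAC (the second is contained in the first) or to the forkhead sequences TGTTTAC or TGTTTGC, searched on both strands, and where there was no match, the 11 bases centred on the summit.
Rab38, T peak, chr7:88482797-88482997: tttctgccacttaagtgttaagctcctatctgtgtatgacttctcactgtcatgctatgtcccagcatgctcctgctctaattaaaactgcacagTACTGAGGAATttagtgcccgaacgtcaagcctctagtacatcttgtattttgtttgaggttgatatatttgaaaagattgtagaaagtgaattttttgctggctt
Lamp1, Foxa2 peak, chr8:13131741-13131941: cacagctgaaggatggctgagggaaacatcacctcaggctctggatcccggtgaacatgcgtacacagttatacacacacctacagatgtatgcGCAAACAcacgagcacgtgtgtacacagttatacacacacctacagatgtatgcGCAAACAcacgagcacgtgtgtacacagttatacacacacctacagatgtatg
Cav1, Foxa2 peak, chr6:17355005-17355205: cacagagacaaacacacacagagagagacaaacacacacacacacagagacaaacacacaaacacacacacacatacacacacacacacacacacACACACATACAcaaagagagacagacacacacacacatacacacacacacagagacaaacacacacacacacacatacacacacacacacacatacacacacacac
Prkcdbp, Foxa2 peak, chr7:105475755-105475955: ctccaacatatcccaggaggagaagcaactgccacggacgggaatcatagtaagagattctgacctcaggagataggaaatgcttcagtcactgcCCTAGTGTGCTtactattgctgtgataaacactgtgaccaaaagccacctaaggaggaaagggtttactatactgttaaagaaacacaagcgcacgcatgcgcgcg

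The Rab38 window held none of the 4 sequences. TCACACCT was found in 4.08% of all T peak windows of this size and in 0.873% of windows 10000 bp away, and TCACAC in 31.2% and 12.1%. The Lamp1 window held TGTTTGC on the minus strand at 2 places, 6 bp before and 48 bp after the summit (positions of the first base). TGTTTGC was found in 14.0% of Foxa2 windows and in 4.05% of those 10000 bp away, and TGTTTAC in 13.8% and 3.12%.

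The Lamp1 and Cav1 windows are repeats. Shifted against itself by 54 bp, the Lamp1 window had the same base at 71.4% of positions, and the Cav1 window, rich in stretches of alternating C and A, at 83.5% after a shift of 92 bp. The best shift gave 34% in the Rab38 window, near the median of 35.5% over T windows, and 33.3% in the Prkcdbp window, against a median of 39.2% over Foxa2 windows. Of the Foxa2 windows, 2.50% reached 80%. This measure was added after the sequences were seen, and the part of repeats in the height of these peaks was not tested.

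Rab38 differed between the embryonic groups in the same order at both stages. Its level was 18.1 FPKM in trunk notochord, 6.58 FPKM in NotoP and listed at 0 in MP at E8.5, and 46.7, 7.35 and 2.32 FPKM in the same groups at E9.5. Trunk notochord was highest and MP lowest. Rab38 stood above 83.7% of all genes in E8.5 trunk notochord and above 93.9% in E9.5 trunk notochord, against 69.8% and 71.0% in NotoP.

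Trunk notochord exceeded NotoP in Rab38 level 2.76-fold at E8.5, a log2 ratio of 1.34 that did not reach 3-fold. At E9.5 it did so 6.36-fold, a log2 ratio of 2.51, and 2.54% of the genes tested had a larger ratio. NotoP differed little between the stages (1.12-fold, log2 ratio 0.14), whereas trunk notochord was 2.58-fold higher at E9.5 than at E8.5. Without replicates, none of these ratios can be set against a spread. In sorted bulk samples, fewer cells of a type and less RNA per cell cannot be told apart.

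Markers of other cell types moved with these comparisons. The summed level of 8 neural tube markers was 98.5 and 77.1 FPKM in trunk notochord at E8.5 and E9.5, against 37.4 and 30.8 FPKM in NotoP and 8.61 and 4.57 FPKM in MP, with Irx3, at 64.6 and 53.6 FPKM in trunk notochord, as the largest part and Pax6, Olig2 and Dbx1 listed at 0 in both. Of these 8 markers, 5 and 4 reached 1 FPKM in trunk notochord. Somite markers summed to 59.4 and 38.8 FPKM in trunk notochord, 21.7 and 21.4 FPKM in NotoP, and 71.5 and 54.5 FPKM in MP. Gut endoderm markers summed to 130, 101 and 50.1 FPKM in trunk notochord, NotoP and MP at E8.5 and to 49, 39.7 and 4.78 FPKM at E9.5, with 7, 6 and 7 and then 5, 5 and 1 of 8 markers at 1 FPKM or more. Sox17 was listed at 0 in both trunk notochord libraries. Smooth muscle and mesenchyme markers summed to 59.3 and 51.3 FPKM in trunk notochord, 42.5 and 41.7 FPKM in NotoP, and 96.5 and 91.2 FPKM in MP. Their part in the differences of Rab38 and of the other genes was not tested. Blood markers summed to at most 2.27 FPKM and macrophage markers to at most 1.35 FPKM in the embryonic libraries.

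NotoP exceeded MP in Rab38 level 3.17-fold at E9.5, a log2 ratio of 1.33 that fell short of 3-fold on the log2(FPKM + 1) scale. At E8.5 no ratio can be given, since the gene was listed at 0 in MP. In culture, Rab38 was at 7.84 FPKM in NotoPdiff, 1.9 FPKM in MPdiff and 2.16 FPKM in NMPdiff. NotoPdiff was thus 4.12-fold above MPdiff (log2 ratio 1.61, just past 3-fold) and 3.63-fold above NMPdiff (log2 ratio 1.48, just below it). The level in NotoPdiff stood above 71.4% of all genes of its library, close to the 69.8% and 71.0% of the embryonic NotoP libraries, and below the 83.7% and 93.9% of trunk notochord. Gut endoderm markers differed between the cultures as well. Their sum was 267 FPKM in NotoPdiff, 27.6 FPKM in MPdiff and 266 FPKM in NMPdiff, with Cldn6 at 126, 3.38 and 17.4 FPKM, Cdh1 at 88.5, 11.1 and 114 FPKM and Sox17 at 7.46, 0.545 and 0.599 FPKM. The part of such cells in the culture differences of Rab38, Cav1 and the other genes was not tested.

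Rab32 (chr10:10545002-10558265, minus strand), a close relative of Rab38, showed another pattern at much lower levels. It was at 2.14 FPKM in E8.5 trunk notochord, 1.26 FPKM in E8.5 MP and listed at 0 in the other 4 embryonic libraries. In culture it was at 1.4 FPKM in NotoPdiff, 0.127 FPKM in MPdiff and 1.17 FPKM in NMPdiff. Of the genes between 1 and 5 FPKM in E8.5 trunk notochord, 19.6% were listed at 0 in E8.5 NotoP and 29.6% in E9.5 trunk notochord, so a 0 at this level was common. NotoPdiff was 11-fold above MPdiff in Rab32, which at these levels is a log2 ratio of 1.09, and 1.2-fold above NMPdiff.

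**Figure D2:**
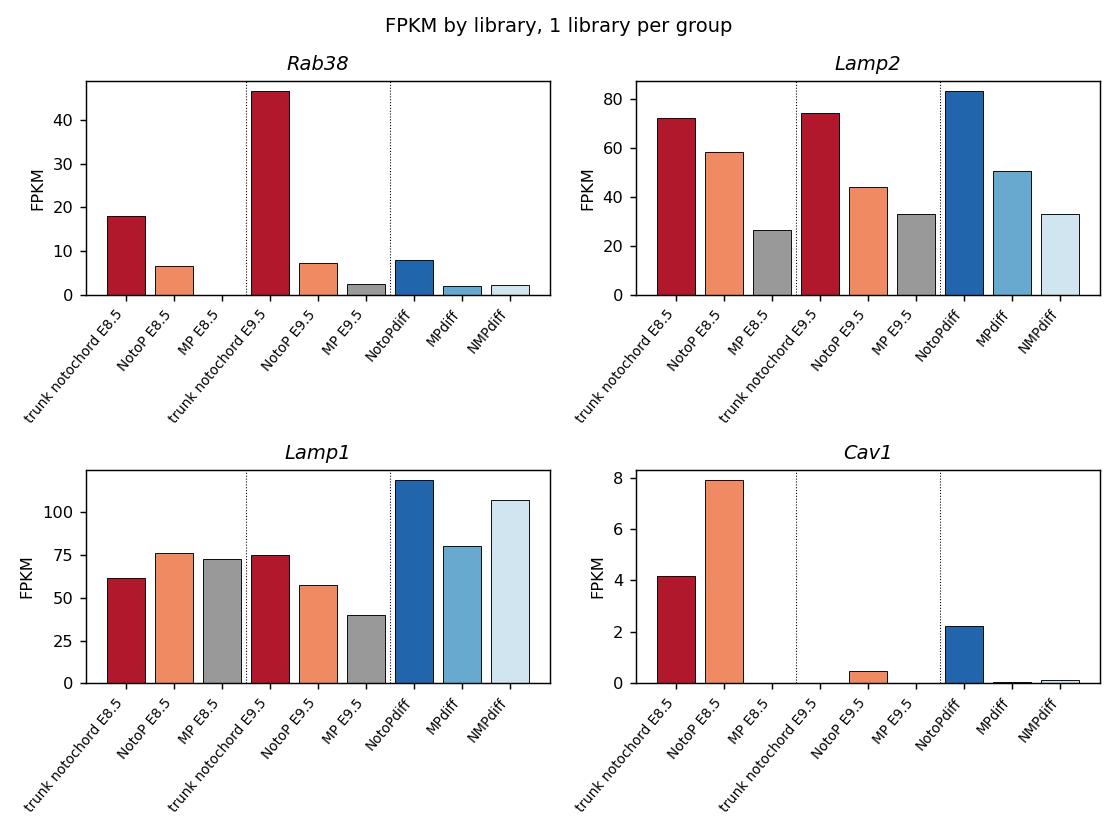
FPKM (y axis, from 0) of Rab38, Lamp2, Lamp1 and Cav1 in the 9 libraries (x axis, 1 bar per library, dotted lines between E8.5, E9.5 and culture). Rab38 and Lamp2 fall from trunk notochord to NotoP to MP at both stages, Lamp1 does not at E8.5, and Cav1 is highest in E8.5 NotoP at 7.91 FPKM.

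Lamp2 (chrX:38401357-38456454, minus strand) followed the same order of groups as Rab38 with smaller steps. Its level was 72.3, 58.2 and 26.6 FPKM in trunk notochord, NotoP and MP at E8.5, and 74.4, 44.2 and 32.9 FPKM at E9.5. The ratio of trunk notochord to NotoP was 1.24-fold at E8.5 and 1.68-fold at E9.5, and that of NotoP to MP was 2.19-fold and 1.34-fold. None of these reached 3-fold, and the 1.24-fold step is within the middle part of all genes, since 39.4% of the genes tested had a larger ratio. In culture, Lamp2 was at 83.3 FPKM in NotoPdiff, 50.8 FPKM in MPdiff and 33.1 FPKM in NMPdiff, which is 1.64-fold and 2.51-fold higher in NotoPdiff. For the second of these ratios, 3.93% of genes were larger.

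Lamp1 (chr8:13159161-13175338, plus strand) had this order at E9.5 but not at E8.5. It was at 61.4 FPKM in trunk notochord, 76.1 FPKM in NotoP and 72.5 FPKM in MP at E8.5, and at 74.8, 57.4 and 39.9 FPKM at E9.5. Trunk notochord was therefore below NotoP at E8.5 (log2 ratio -0.30) and above it at E9.5 (0.38). In culture Lamp1 was at 119 FPKM in NotoPdiff, 80.5 FPKM in MPdiff and 107 FPKM in NMPdiff. Between E8.5 and E9.5 its level in MP was 1.81-fold lower. Among the 9 libraries, the Pearson correlation of log2(FPKM + 1) between Rab38 and Lamp2 was 0.83, and between Rab38 and Lamp1 it was 0.01, both given as a description of libraries that share 6 embryonic and 3 cultured sources.

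Cav1 (chr6:17306335-17341452, plus strand), the main caveolin, was highest in the Noto-positive cells of E8.5. Its level was 7.91 FPKM in NotoP, 4.19 FPKM in trunk notochord and listed at 0 in MP at E8.5, and 0.491 FPKM in NotoP and listed at 0 in trunk notochord and MP at E9.5. NotoP was 16.1-fold lower at E9.5 than at E8.5, a log2 ratio of -2.58, and 0.922% of the genes tested had a lower ratio. In trunk notochord, the change was from 4.19 FPKM to a listed 0, and of all genes between 1 and 5 FPKM at E8.5, 29.6% were listed at 0 at E9.5. In culture Cav1 was at 2.21 FPKM in NotoPdiff, 0.0688 FPKM in MPdiff and 0.125 FPKM in NMPdiff. NotoPdiff was 32.1-fold above MPdiff and 17.6-fold above NMPdiff by FPKM, which with the added 1 FPKM are log2 ratios of 1.59 and 1.51. The first of these lies so close to 3-fold that it ended just below it, at 1.58, when the libraries were rescaled.

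Cav2, whose protein assembles with caveolin-1, lies beside Cav1 on the same strand at chr6:17281185-17289115. It was at 2.4 FPKM in NotoP and 0.8 FPKM in trunk notochord at E8.5, and listed at 0 in E8.5 MP and in all 3 libraries of E9.5. In culture it was at 0.461 FPKM in NotoPdiff, listed at 0 in MPdiff and at 0.515 FPKM in NMPdiff, so that NotoPdiff was not above NMPdiff here. Over the 9 libraries the correlation of Cav1 with Cav2 was 0.90. Cav1 and Cav2 were both highest in E8.5 NotoP, and the correlation was not recomputed without the E8.5 libraries. Endothelial cells are rich in caveolae, and 8 endothelial markers summed to 6.31, 13.5 and 21 FPKM in trunk notochord, NotoP and MP at E8.5. Of that sum, Egfl7 made 3.78, 12.2 and 20.1 FPKM. Esam was at 1.19, 1.02 and 0 FPKM, Kdr at 0.403, 0.346 and 0.952 FPKM, and Tek at 0.937 FPKM in trunk notochord only. Pecam1, Cdh5, Tie1 and Emcn were listed at 0 in the 3 libraries. The part of endothelial cells in the Cav1 and Cav2 values was not tested.

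The cavin genes had other patterns. Ptrf (chr11:100956733-100970887, minus strand), the gene of cavin-1, was at 2.73 FPKM in trunk notochord, 0.293 FPKM in NotoP and listed at 0 in MP at E8.5, and at 2.95, 1.4 and 0.284 FPKM at E9.5. The order of the groups was thus that of Rab38 and not that of Cav1, and the correlation of Ptrf with Cav1 was -0.03 and with Rab38 0.58. Trunk notochord exceeded NotoP 9.33-fold at E8.5 and 2.11-fold at E9.5 by FPKM, which are log2 ratios of 1.53 and 0.72 with the added 1 FPKM. In culture the highest level was in NMPdiff, at 4.5 FPKM, followed by NotoPdiff at 1.59 FPKM and MPdiff at 0.797 FPKM. NotoPdiff was 2.83-fold lower than NMPdiff in Ptrf.

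Sdpr (chr1:51289126-51302960, plus strand) and Prkcdbp (chr7:105480083-105482300, minus strand) each reached 1 FPKM in a single library. Sdpr was at 1.44 FPKM in E8.5 trunk notochord and listed at 0 in the other 8 libraries. Prkcdbp was at 2.32 FPKM in E9.5 trunk notochord, 0.446 FPKM in E9.5 MP, 0.142 FPKM in NotoPdiff and 0.349 FPKM in NMPdiff, and listed at 0 in the other 5 libraries. No library had all 5 caveolin and cavin genes above 0.

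Counted over the set, few members passed 3-fold in any comparison. For trunk notochord over NotoP at E8.5, 1 of the 8 members tested was higher (Rab32) and 0 were lower, where 8.79% of all genes tested were higher and 8.00% lower. At E9.5, 2 of the 5 members tested were higher (Prkcdbp and Rab38) and 0 lower, beside 8.41% and 10.0% of all genes. Rab32 and Prkcdbp, listed at 0 in NotoP, entered these counts only through the trunk notochord library in which they were high.

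For NotoP over MP at E8.5, 3 of the 6 members tested were higher (Cav1, Cav2 and Rab38) and 0 lower, beside 18.0% and 8.20% of all genes. All 3 were listed at 0 in MP and entered this count only through the NotoP library in which they were high. Against the E9.5 MP library instead, a comparison added after the data were seen, 2 of these stayed past 3-fold (Cav1 and Cav2) and Rab38 did not. For NotoP over MP at E9.5, 0 of 4 were higher and 0 lower, beside 5.33% and 2.25%. The background of 18.0% shows how common such a difference was against the E8.5 MP library.

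For NotoPdiff over MPdiff, 2 of the 6 members tested were higher (Cav1 and Rab38) and 0 lower, beside 3.02% and 0.861% of all genes. Cav1, at 0.0688 FPKM in MPdiff, entered this count only through NotoPdiff, the library in which it was high. For NotoPdiff over NMPdiff, 0 of 6 were higher and 0 lower, beside 2.52% and 1.53%. NotoPdiff is shared by these comparisons, and each NotoP library by a trunk notochord and an MP comparison.

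**Figure D3:**
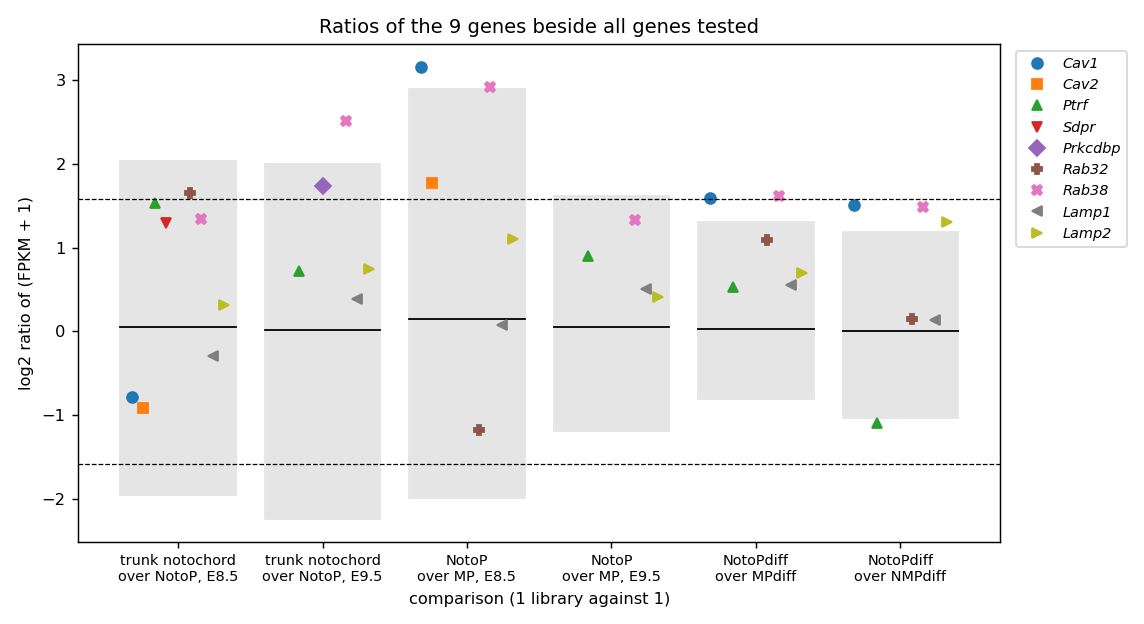
Log2 ratios of (FPKM + 1) (y axis) of those of the 9 genes with at least 1 FPKM in 1 of the 2 libraries, in 6 comparisons of 1 library with 1 other (x axis). Grey boxes span the 5th to 95th percentile of all genes tested, black lines their median and dashed lines 3-fold (1.58); where a library lists 0, a point rests on the added 1 FPKM. In the comparisons with both libraries above 0, Rab38 lies at 1.33 to 2.51.

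The peak lists were read for all 9 genes. A T peak lay within 5 kb of 2 of the 9 genes, Rab38 and Rab32, beside 14.6% of the 21938 protein-coding genes. A Foxa2 peak lay within 5 kb of 2 genes, Rab38 and Prkcdbp, beside 28.7%, and 1 gene, Rab38, had both, beside 8.82%. With 9 genes, these counts are near the background and are not a result about the set. Long genes hold more peaks, and Rab38 is 61300 bp long against a median of 17425 bp. Of the genes between 50000 and 75000 bp, 20.1% had a T peak and 50.1% a Foxa2 peak within 5 kb.

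The Foxa2 peak of Rab38 was of ordinary height. It was 8.35-fold enriched, 8317th of 22684, with its summit in the annotated 3′ end of the gene and 8053 bp from the T summit. The median Foxa2 peak was 7.19-fold. The window of this peak held TGTTTAC on the plus strand 8 bp after its summit.

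The T peak in the intron of Rab32 was 6.48-fold enriched and 4395th of 6875, below the median T peak of 7.45-fold, and its window held TCACAC 35 bp after the summit. The 2 Rab genes thus differed in the height of their T peaks in the NotoPdiff cultures. In sorted NotoPdiff cells, Rab38 was at 7.84 FPKM and Rab32 at 1.4 FPKM. This is a description of 2 genes, and the part of the peaks in these levels was not tested. The 8.12-fold Foxa2 peak of Prkcdbp lay between genes, 4228 bp beyond the end of the gene.

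No T peak came closer than 71504 bp to the other 7 genes. The nearest, to Cav2 and also to Cav1 (96654 bp), was 7.64-fold enriched. For Foxa2, the nearest peaks of the other genes lay between 7941 bp (Sdpr, 11.5-fold) and 37770 bp (Cav2, 3.72-fold). The peak nearest to Cav1 was 13653 bp beyond its end and 7.78-fold enriched, and that nearest to Lamp2 was 29716 bp before its start and 11.4-fold. That of Ptrf was 25483 bp away in an intron of Stat3 and 9.83-fold enriched.

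**Figure D4:**
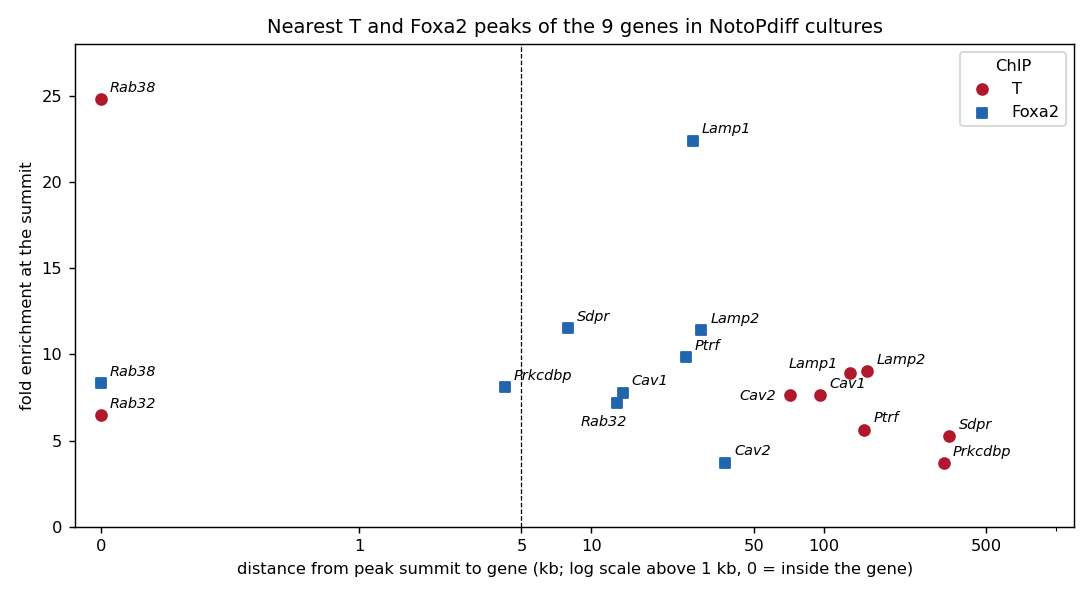
Fold enrichment at the summit (y axis) of the T (circles) and Foxa2 (squares) peaks nearest to each of the 9 genes, against the distance from summit to gene (x axis, in kb, on a log scale above 1 kb, with 0 for a summit inside the gene). The dashed line is at 5 kb; the T peak of Rab38 at 24.8-fold stands far above the T peaks of the other genes, which lie between 3.68 and 9.01-fold.

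Ctsc, Tmem135 and Grm5 were looked at as neighbours of Rab38, because a peak in an intron may lie near several genes. Their distances to the T peak were not measured, and the start site nearest to its summit was that of Rab38. Ctsc, which encodes the lysosomal protease cathepsin C, was at 51.6, 10.3 and 1.05 FPKM in trunk notochord, NotoP and MP at E8.5 and at 22.1, 16.2 and 2.03 FPKM at E9.5. It thus had the same order of groups as Rab38 in the embryo. In culture it was at 6.09 FPKM in NotoPdiff, 4.94 FPKM in MPdiff and 12.1 FPKM in NMPdiff, where Rab38 was highest in NotoPdiff. Tmem135 was at 7.74, 5.36 and 0.703 FPKM at E8.5 and at 7.72, 5.41 and 3.22 FPKM at E9.5, the same order again, and at 7.58, 5.65 and 5.68 FPKM in NotoPdiff, MPdiff and NMPdiff. Grm5 was at or near 0 in every library. How many of all genes share the order of Rab38 was not counted, and the part of the T peak in these levels was not tested.

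Among the 10938 genes compared over the 9 libraries, 141 had a correlation of log2(FPKM + 1) of at least 0.9 with Rab38. The 5 most alike were Ift88 (0.984), Psme2 (0.984), Acp2 (0.980), Arhgef28 (0.977) and Amigo2 (0.972). Acp2, which encodes a lysosomal acid phosphatase, was at 17.5, 8.71 and 3.35 FPKM in trunk notochord, NotoP and MP at E8.5 and at 23.5, 12.2 and 7.27 FPKM at E9.5. Arhgef28, a guanine nucleotide exchange factor, was at 13 and 23.9 FPKM in trunk notochord and at 3.62 and 5.45 FPKM in NotoP at the 2 stages.

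With Cav1, 18 genes reached 0.9, and the 5 most alike were Pthlh (0.992), Lrrc48 (0.954), Wbp1 (0.945), Dnmbp (0.942) and Scyl2 (0.940). Pthlh, which encodes parathyroid hormone-related protein, was at 8.73 FPKM in NotoP and 2.91 FPKM in trunk notochord at E8.5, 0.426 FPKM in E9.5 NotoP and 2.35 FPKM in NotoPdiff, and listed at 0 in the other 5 libraries. The same comparison was run for 3 other members. For Ptrf there were 6, led by B4galt6 (0.913), for Rab32 there were 4, led by Mroh1 (0.955), and for Lamp1 there were 5, led by Diap2 (0.986).

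The wider machinery was described by 7 lists of genes. Their counts past 3-fold stand beside these shares of all genes tested, higher and then lower. For trunk notochord over NotoP these were 8.79% and 8.00% at E8.5 and 8.41% and 10.0% at E9.5. For NotoP over MP they were 18.0% and 8.20% at E8.5 and 5.33% and 2.25% at E9.5. For NotoPdiff they were 3.02% and 0.861% over MPdiff and 2.52% and 1.53% over NMPdiff. The list of 13 caveola partners holds dynamins, EHD and pacsin proteins that bind the neck of caveolae, among others. Of its 12 genes tested in trunk notochord over NotoP, 1 was higher by 3-fold at E8.5 (Ehd3, 6.01 against 1.03 FPKM). Another was higher at E9.5 (Pacsin3, 10.2 against 2.07 FPKM), and 0 were lower. At 1 of 12 per stage, the higher genes were near the share of all genes. The median log2 ratio was 0.96 at E8.5 and 0.49 at E9.5, beside 0.05 and 0.01 for all genes. At E8.5, Ehd2, Pacsin1 and Dnm1 reached 1 FPKM only in trunk notochord, so they entered this median through the library in which they were high. At E9.5 this held for Ehd3, while Pacsin1 reached 1 FPKM only in NotoP. In NotoPdiff over MPdiff and over NMPdiff, 0 of 11 were past 3-fold and the medians were 0.03 and 0.04. In NotoP over MP, the medians were -0.77 at E8.5 and 0.04 at E9.5, with Dnm1 at 3.74 against 0.242 FPKM as the single gene past 3-fold, at E9.5. Murc (also called Cavin4), a muscle cavin, was above 0 in all 9 libraries, at 8.61 and 3.49 FPKM in trunk notochord, 2.31 and 2.21 FPKM in NotoP and 8.89 and 1.12 FPKM in MP, while Cav3 was listed at 0 in all of them.

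The list for Rab32 and Rab38 holds their exchange factor BLOC-3 (Hps1 and Hps4), the BLOC-1 and BLOC-2 complexes of lysosome-related organelles, and their GTPase-activating proteins and effectors. Of its 23 genes tested at each stage in trunk notochord over NotoP, 2 were higher and 5 lower at E8.5, and 1 was higher and 2 lower at E9.5, where the shares over all genes are the 8.79% and 8.00% and the 8.41% and 10.0% given above. Those lower at both stages were the BLOC-1 subunit genes Bloc1s1, at 8 against 46.3 FPKM and 8.64 against 28.1 FPKM, and Bloc1s2. Hps4 was higher at E9.5, at 24.2 against 6.34 FPKM. The medians were -0.03 and -0.29. Over MP, NotoP had a median of 0.80 at E8.5, with 6 higher and 1 lower of 24 tested, and -0.02 at E9.5, with 0 of 25 past 3-fold. Among the 6, Hps3 and Hps4 were listed at 0 in E8.5 MP and entered only through NotoP, where they were high. In culture, 0 of 26 were past 3-fold for NotoPdiff over either culture.

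For the HOPS and CORVET tethers, which bring vesicles to the late endosome and lysosome, 1 gene was higher and 2 were lower at E8.5 and 0 and 1 at E9.5, of 10. The median was 0.13 and -0.16. In NotoP over MP it was -0.08 and 0.27, and 0 were past 3-fold at E9.5. Vps33b was at 6.85 against 1.1 FPKM at E8.5 and Vps18 was listed at 0 in E9.5 trunk notochord against 6.51 FPKM in NotoP.

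A further list holds lysosomal membrane proteins other than Lamp1 and Lamp2. Of 15 tested in trunk notochord over NotoP, 0 were higher and 1 lower at E8.5, and 1 was higher (Scarb2, an integral membrane protein of the lysosome, 23.7 against 3.66 FPKM) and 0 lower at E9.5. The median was 0.05 and -0.18. In NotoP over MP it was 0.88 at E8.5 and 0.37 at E9.5, with 12 and 10 of 15 above 0. At E8.5, 5 of the 15 were higher by 3-fold and 0 lower, beside 18.0% and 8.20% of all genes. Among the 5, Clcn7, Ostm1, Ctns and Slc17a5 were listed at 0 in MP and entered only through NotoP, where they were high. In NotoPdiff the median was 0.40 over MPdiff and 0.56 over NMPdiff, with 12 and 13 of 15 above 0 and 0 past 3-fold.

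The 32 lysosomal enzymes had a median of 0.06 at E8.5 and 0.28 at E9.5 in trunk notochord over NotoP. At E9.5, 3 were higher, among them Ids (18.2 against 3.11 FPKM), an enzyme that breaks down glycosaminoglycans, and 1 was lower (Arsa). In NotoP over MP, 21 of 30 ratios were above 0 at E8.5 (median 0.80) and 31 of 32 at E9.5 (median 0.78), beside medians of 0.15 and 0.05 over all genes. In NotoPdiff over MPdiff and NMPdiff, 27 and 29 of 32 were above 0 (medians 0.51 and 0.50, beside 0.03 and 0.00). Few of these ratios were large. Higher by 3-fold in NotoP over MP were 9 of 30 genes at E8.5, beside 18.0% of all genes, and 2 of 32 at E9.5, near the 5.33% of all genes, among them Ctsf at 9.13 against 0.926 FPKM. Of the 9 at E8.5, Lgmn, Ctsf, Smpd1 and Arsb were listed at 0 in MP. They entered that count only through the NotoP library in which they were high. In culture 0 were past 3-fold.

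The V-ATPase is the proton pump that acidifies lysosomes and vacuoles. In trunk notochord over NotoP its median was 0.13 at E8.5 and 0.14 at E9.5. The subunit gene Atp6v0e2 was the single gene of all the lists that was higher by 3-fold at both stages. It was at 7.2 against 1.54 FPKM and 10.4 against 1.76 FPKM, and also higher in NotoPdiff than in MPdiff, at 4.57 against 0.19 FPKM. The share of all genes higher at both stages was not computed. In NotoP over MP the median was 0.46 and 0.44, in NotoPdiff over MPdiff 0.34 with 17 of 18 above 0, and over NMPdiff -0.14. Atp6v0c was listed at 0.00276 FPKM in E8.5 NotoP and between 51.6 and 169 FPKM in the other 8 libraries, and Atp6v0b was at 4.77 FPKM in E9.5 trunk notochord against 33.6 FPKM in NotoP. Whether such single values come from the cells or from the library was not tested. Of the 4 lysosomal transcription factors, 3 were tested in trunk notochord over NotoP at E8.5 and 1 a day later. At E8.5, 1 was higher (Tfeb, 2.83 FPKM, listed at 0 in NotoP).

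**Figure D5:**
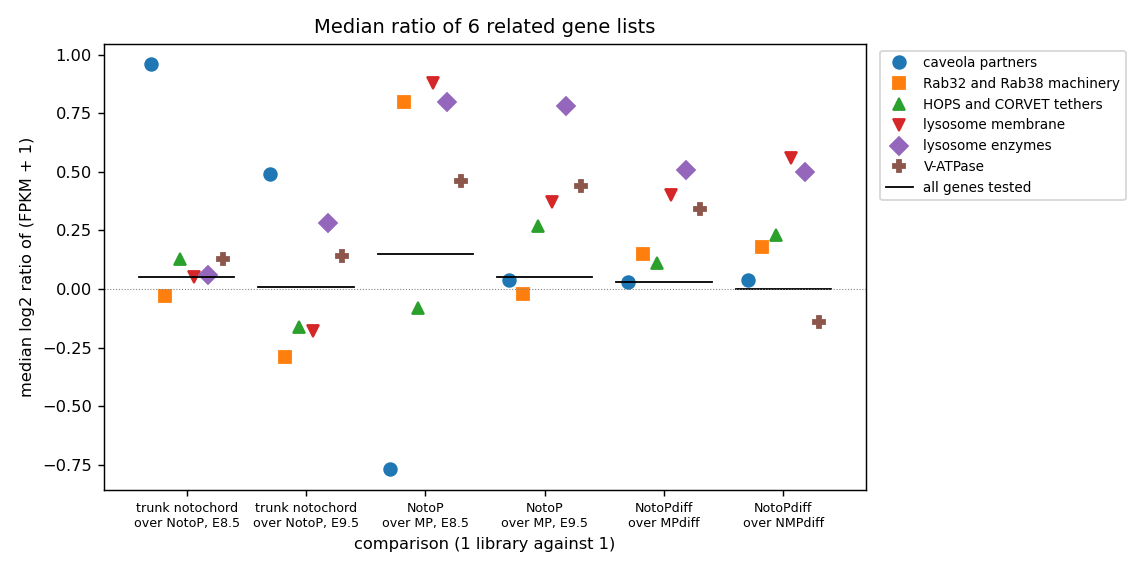
Median log2 ratio of (FPKM + 1) (y axis) of 6 lists of related genes in 6 comparisons of 1 library with 1 other (x axis), with black lines for the median of all genes tested. The lysosome enzymes lie at 0.50 to 0.80 in the 4 comparisons with MP, MPdiff or NMPdiff and at 0.06 and 0.28 between trunk notochord and NotoP, where the caveola partners are highest at 0.96 and 0.49. Some caveola partners reached 1 FPKM only in trunk notochord.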

How the data were processed

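Of the 21 samples of the series, 9 RNA-seq libraries and 2 ChIP-seq libraries were used, and the other 10 samples were not used here. The authors aligned reads to mm10 with TopHat2 2.1.1 and strand information, collapsed duplicates by unique molecular identifiers and deposited FPKM values estimated with Cufflinks 2.2.1. All sample columns were used (0 left out). For ChIP-seq, the authors called peaks with MACS3 3.0.0b1 on each library at a q-value of 0.1, and the deposited lists give a fold enrichment, which is a ratio, and −log10 of q for each peak. The deposited score column was not used, and the control library of the peak calls is not given in the sources used here.

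Ratios were computed as log2 of (FPKM + 1) with Python 3.11.15 and pandas 2.3.3, and called at 3-fold for genes with at least 1 FPKM in 1 of the 2 libraries; the calculation was tested on simulated data. The read counts behind a value are not known, so its counting error is not either. With 1 library per group, no test was made and no p-value is printed. The members and the gene lists were chosen with earlier results of these data known. Named are all members and up to 4 list genes per comparison with the largest ratio past 3-fold. Also named are the 5 genes most alike to each of 5 members among those with at least 5 FPKM in 1 library. Named as well are the genes taken as neighbours of Rab38, and a few genes picked after their values were seen (Murc, Cav3). Of the list genes, Vamp7 had no row. A few list genes that the rule would name are not reported here. Peaks were assigned to a gene when their summit lay within 5 kb of its GENCODE annotation in GRCm38, and sequences were read from that genome. Where a member overlaps a gene on the other strand (Cav1, Cav2, Sdpr, Prkcdbp, Rab38 and Lamp1), the stranded alignment separates their reads. Alternatives were a pseudocount of 0.1 FPKM, a 2-fold threshold, no minimum or one of 5 FPKM, libraries rescaled by the median of ratios, and other peak windows and q-values.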

Additional observations from a re-analysis of the deposited data

How the results depend on the processing

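Recomputing the numbers of members past 3-fold, and of those with a peak nearby, gave 68 alternative counts, of which 53 stayed within 1.5 times the value in the report and 15 did not. For trunk notochord over NotoP at E8.5, where 1 was higher, 3 were higher with a pseudocount of 0.1 FPKM, 4 at 2-fold and 0 with a minimum of 5 FPKM. At E9.5, 1 in place of 2 was higher with that minimum. For NotoP over MP at E8.5, 1 in place of 0 was lower with the smaller pseudocount and at 2-fold, and at E9.5, 2 and 1 in place of 0 were higher. For NotoPdiff over MPdiff, 1 in place of 2 was higher with the 5 FPKM minimum and after rescaling. Over NMPdiff, 2 with the smaller pseudocount and 3 at 2-fold were higher in place of 0, and 1 was lower at 2-fold. A Foxa2 summit lay within 50000 bp of 9 genes and inside 1, in place of 2 within 5 kb. Of the 216 recomputed log2 ratios of single members, 42 moved, all with the pseudocount of 0.1 FPKM. The signs say nothing here, because a pseudocount cannot change the sign of a ratio. The rescaling factors, between 1.003 and 1.032, could change it only for ratios near 0. Rab38 in trunk notochord over NotoP stayed at 1.45 and 2.65 with that pseudocount and at 1.36 and 2.53 after rescaling. No paired analysis was possible because every group has 1 library and no groups share 2 replicate numbers. Levels of a few FPKM, which is where the caveola genes and Rab32 lie, depend on the pseudocount and on whether a library lists 0.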
